A study of Mus musculus with 8 samples.

Results

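Ldb3, Myoz1, Myoz2, Actn2, Actn3, Tcap, Csrp3, Myot, Pdlim3 and Xirp1 encode proteins of the Z-disc, the plate that borders each sarcomere of striated muscle. These 10 genes were taken from 18193 genes measured in embryonic tongue buds, through every probe set whose platform annotation names that gene alone, which gave 13 of 34945 such probe sets. Ldb3 had 3 probe sets, Myoz1 had 2 and each other gene had 1. Mutant tongue buds came from Wnt1-Cre; Alk5 fl/fl embryos, in which Cre recombinase driven by Wnt1 regulatory sequence inactivates Alk5 (Tgfbr1), the type I receptor of TGF-beta, in the cranial neural crest. Control tongue buds came from Alk5 fl/fl embryos, which carry the floxed allele without Cre. All embryos were C57BL/6J mice at embryonic day 13.5, and their sex was not determined. There were 4 Affymetrix arrays per group, hybridised in 1 colour. Without a Wnt1-Cre group that keeps Alk5, an effect of Cre itself cannot be told apart from one of losing the receptor. The labels number the tongue buds without naming litters, and p-values measure the spread between these samples only.

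Thin filaments of neighbouring sarcomeres are anchored in the Z-disc, where alpha-actinin cross-links their actin and titin ends. PDZ-LIM proteins, calsarcins, myotilin and LIM-only proteins bind alpha-actinin or titin there, and several of them are also placed at the Z-disc as docking sites for signalling enzymes. Tongue muscle descends from myoblasts of the occipital somites, which migrate into a bud whose connective tissue comes from the neural crest, so the cells that build Z-discs are not the cells in which Wnt1-Cre is known to act.

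Array medians lay between 5.96 and 6.01 on the log2 scale, and Pearson correlations across probe sets were 0.995 to 0.998 among mutant arrays, 0.992 to 0.997 among control arrays and 0.990 to 0.996 between the groups. The number of arrays limits the precision. All 3 probe sets of Tgfbr1 itself were called higher in mutants. Its brightest set read 12.36 to 12.42 on mutant arrays and 11.89 to 12.12 on control arrays (log2 change 0.39, limma adjusted p = 0.00662), and the others changed by 0.82 (adjusted p = 0.0109) and 0.52 (adjusted p = 0.0367). Where these probes lie with respect to the floxed sequence is not given in the files or labels, so Tgfbr1 checks neither the deletion nor the labels. Skeletal muscle markers were bright in both groups, with means of 12.35 in mutants and 12.73 in controls for Myog and 12.43 in mutants and 13.11 in controls for Myh3. Of 7 cardiac markers, Nppa, Nppb, Myl7 and Gata4 lay below the array medians in both groups. Nkx2-5 (mean 8.01 in mutants, 8.35 in controls), Myh6 (6.64 and 6.51) and Tbx5 (6.15 and 6.07) lay above them in both groups. The mean over the 7 was 5.78 to 5.87 on mutant arrays and 5.82 to 5.95 on control arrays. Mutant 3 had the lowest value of its group for 10 of the 10 Z-disc genes, and control 1 for 9 of the 10, so results that change without either array are given both ways.

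Z-disc transcripts were lower in mutant tongue buds. Of the 10 genes, each represented by its brightest probe set, 7 fell (Csrp3, Ldb3, Myoz2, Myot, Pdlim3, Actn2 and Tcap), 0 rose, and Actn3, Xirp1 and Myoz1 did not pass. A gene was called at a limma adjusted p of 0.05, with Benjamini-Hochberg adjustment over all 34945 probe sets. Over the 18193 genes 4.46% were called lower and 3.06% higher by the same rule. The 10 genes were chosen with earlier results of these data known, so their counts beside the shares of all genes are a description. At an unadjusted p under 0.05, limma gave 9 of the 10 genes lower and 0 higher. The share of all genes at that unadjusted level was not counted, here or for the lists below. The falls ran from 2.89-fold for Csrp3 to 1.61-fold for Tcap, with 7 of the 10 genes falling at least 1.5-fold, against 1.74% of all genes, and 4 at least 2-fold, against 0.456%. The median log2 change was -0.89 over the 10 genes and -0.01 over all genes. In 8 of the 10 genes all 4 mutant values lay below all 4 control values, which held for 8.87% of all genes. By probe set, 8 of 13 were called lower against 3.25% of all probe sets, 0 were called higher against 2.69%, 10 of 13 had groups that did not overlap against 6.89%, and 13 of 13 had a log2 change below 0. By gene, 10 of 10 had a change below 0, against 9711 of all 18193 genes. A bud with fewer muscle cells and a bud with less of these RNAs per muscle cell cannot be told apart in bulk tissue.

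**Figure D1:**
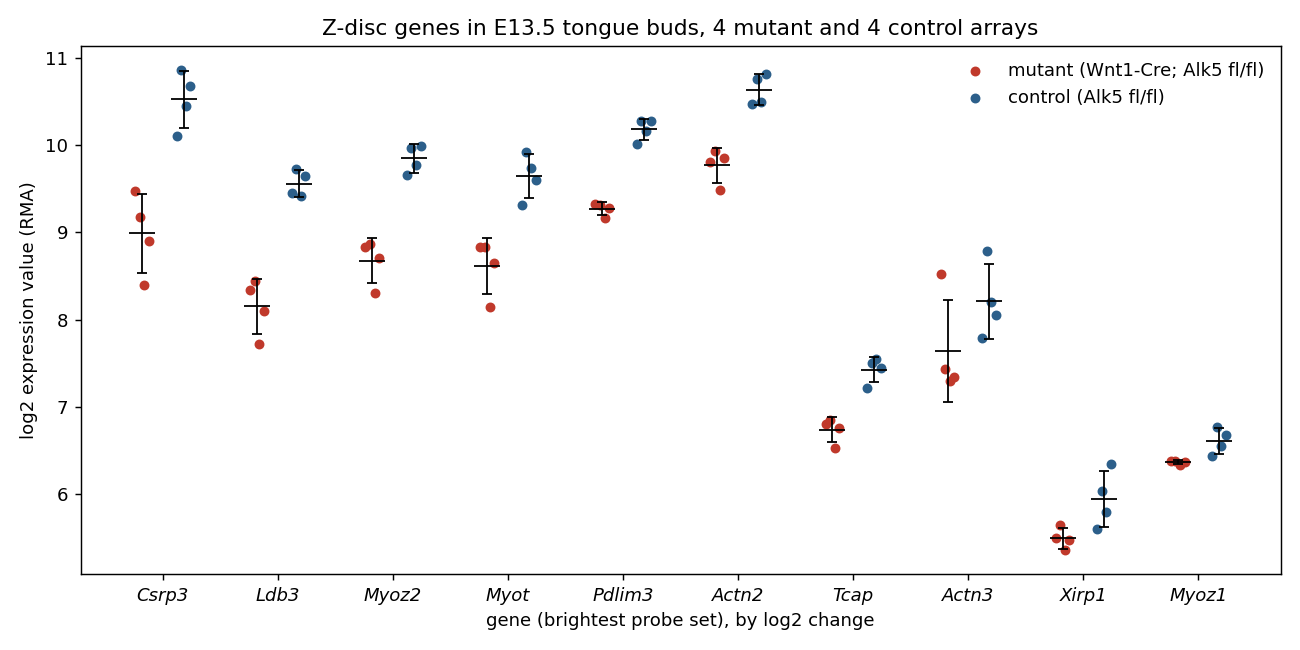
Log2 expression values (RMA, vertical axis) of the brightest probe set of each Z-disc gene on 4 mutant arrays (red, left of each pair) and 4 control arrays (blue, right), with black bars for the mean and SD. Groups do not overlap for Csrp3, Ldb3, Myoz2, Myot, Pdlim3, Actn2, Tcap and Myoz1, while those of Actn3 and Xirp1 do.

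Alpha-actinin is the cross-linker of the Z-disc, and Actn2 encodes the sarcomeric form shared by all striated fibres and the heart. Its probe set 1448327_at read 9.81, 9.93, 9.48 and 9.84 on mutants 1 to 4, against 10.47, 10.75, 10.50 and 10.81 on controls 1 to 4. The highest mutant lay below the lowest control by more than the SD of either group. Actn2 averaged 9.77 ± 0.20 in mutants and 10.63 ± 0.17 in controls (SD, n = 4 each). Its log2 change was -0.87 (SE 0.115, limma adjusted p = 0.0035) or 1.82-fold lower (95% interval 1.52 to 2.18). Actn3, the alpha-actinin of fast fibres, read 8.52, 7.43, 7.30 and 7.34 on mutants 1 to 4, against 7.79, 8.79, 8.20 and 8.05 on controls 1 to 4. Mutant 1 stood within the control range and the other 3 mutants below it. The log2 change of Actn3 was -0.56 (95% interval -1.23 to 0.11, limma adjusted p = 0.344), and without mutant 1 it was -0.85 (adjusted p = 0.0577), so a fall as large as that of Actn2 lies within its interval.

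Myot encodes myotilin, an immunoglobulin-domain protein that binds alpha-actinin and bundles actin. It read 8.84, 8.83, 8.15 and 8.65 on mutants 1 to 4, against 9.32, 9.91, 9.74 and 9.60 on controls 1 to 4. Mutant 3 was the lowest of the 8 arrays and control 1 the lowest control, and the groups did not overlap. Its log2 change was -1.03 (SE 0.172, limma adjusted p = 0.0097), and the adjusted p became 0.0548 when the variances were not moderated across probe sets.

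Ldb3 and Pdlim3 encode PDZ-LIM proteins (ZASP, also called Cypher, and ALP) that bind alpha-actinin through the PDZ domain. The brightest Ldb3 probe set, 1433783_at, read 8.34, 8.44, 7.72 and 8.10 on mutants 1 to 4, against 9.45, 9.73, 9.41 and 9.64 on controls 1 to 4. The gap between the highest mutant and the lowest control was wider than the whole range of either group. It averaged 8.15 ± 0.32 in mutants and 9.56 ± 0.15 in controls (SD, n = 4 each). The log2 change was -1.41 (SE 0.150, limma adjusted p = 0.00137) or 2.65-fold lower (95% interval 2.10 to 3.35). Ldb3 is spliced into long and short forms, and its 3 probe sets did not change by the same amount. Set 1416752_at read 6.32, 6.43, 6.09 and 6.22 on mutants 1 to 4, against 6.77, 7.08, 6.91 and 7.20 on controls 1 to 4, a log2 change of -0.72 (adjusted p = 0.00497 in limma). Set 1451999_at read 6.39, 6.46, 6.70 and 6.70 on mutants 1 to 4, against 7.77, 7.52, 6.74 and 6.83 on controls 1 to 4, a log2 change of -0.65 that did not pass (adjusted p = 0.136 in limma). On that set controls 1 and 2 stood well above controls 3 and 4, and mutant 3 was not the lowest mutant, unlike on the other Ldb3 sets. With the mean of the 3 sets in place of the brightest, the log2 change of Ldb3 was -0.93 (limma adjusted p = 0.000555).

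Pdlim3 had the smallest spread of the genes that fell. Its values were 9.33, 9.31, 9.16 and 9.27 on mutants 1 to 4, against 10.01, 10.27, 10.16 and 10.27 on controls 1 to 4. The means were 9.27 ± 0.07 in mutants and 10.18 ± 0.12 in controls (SD, n = 4 each). The log2 change of -0.91 (SE 0.072) had the lowest adjusted p of the 13 probe sets, 0.000343 in limma, and corresponds to 1.88-fold lower (95% interval 1.68 to 2.10).

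Calsarcins, encoded by the Myoz genes, tether the phosphatase calcineurin to alpha-actinin, with Myoz2 in slow fibres and heart and Myoz1 in fast fibres of the adult. Myoz2 read 8.83, 8.87, 8.30 and 8.71 on mutants 1 to 4, against 9.65, 9.97, 9.77 and 9.99 on controls 1 to 4. The highest mutant lay well below control 1, the lowest control. Its log2 change was -1.17 (SE 0.131, limma adjusted p = 0.00172), which is 2.25-fold lower (95% interval 1.83 to 2.76). Myoz1 changed far less on its brighter set, 1460202_at, which read 6.38, 6.38, 6.34 and 6.37 on mutants 1 to 4, against 6.44, 6.77, 6.55 and 6.68 on controls 1 to 4. The 4 mutants lay together just below the lowest control, and the log2 change of -0.24 (95% interval -0.41 to -0.08) did not pass (limma adjusted p = 0.0944). It passed without control 1, at -0.30 (adjusted p = 0.037). The other Myoz1 set, 1448636_at, ran from 3.38 to 3.72 in mutants and from 3.54 to 3.77 in controls, well below the array medians, with overlapping groups and a log2 change of -0.07 (limma adjusted p = 0.726).

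Csrp3 encodes the muscle LIM protein, which binds alpha-actinin and telethonin and is also found in the nuclei of muscle cells. It read 9.47, 9.18, 8.40 and 8.91 on mutants 1 to 4, against 10.10, 10.86, 10.44 and 10.68 on controls 1 to 4. Spread within both groups was wide, with mutant 3 more than 1 log2 unit below mutant 1, yet the groups did not overlap. The means were 8.99 ± 0.46 in mutants and 10.52 ± 0.33 in controls (SD, n = 4 each), and the log2 change of -1.53 (SE 0.232, limma adjusted p = 0.00627) was the largest of the 13 probe sets, at 2.89-fold lower (95% interval 2.01 to 4.16). Tcap encodes telethonin, which joins the amino-terminal ends of titin molecules in the Z-disc. It read 6.80, 6.85, 6.53 and 6.77 on mutants 1 to 4, against 7.22, 7.50, 7.55 and 7.44 on controls 1 to 4. All mutants were lower than all controls, and the log2 change was -0.69 (SE 0.093, limma adjusted p = 0.0038) or 1.61-fold lower (95% interval 1.39 to 1.87).

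Xirp1 encodes Xin, an actin-binding repeat protein of intercalated discs and myotendinous junctions. It was a dim transcript here, at 5.501, 5.65, 5.36 and 5.48 on mutants 1 to 4, against 5.61, 6.04, 5.80 and 6.35 on controls 1 to 4. Mutant 2 lay above control 1, and both group means were below the array medians. The log2 change of -0.45 (95% interval -0.77 to -0.12) did not pass (limma adjusted p = 0.119) but passed without control 1, at -0.56 (adjusted p = 0.0468). Xirp1 and Myoz1 also passed without controls 1 and 3 together, which gave 9 called genes in place of 7.

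**Figure D2:**
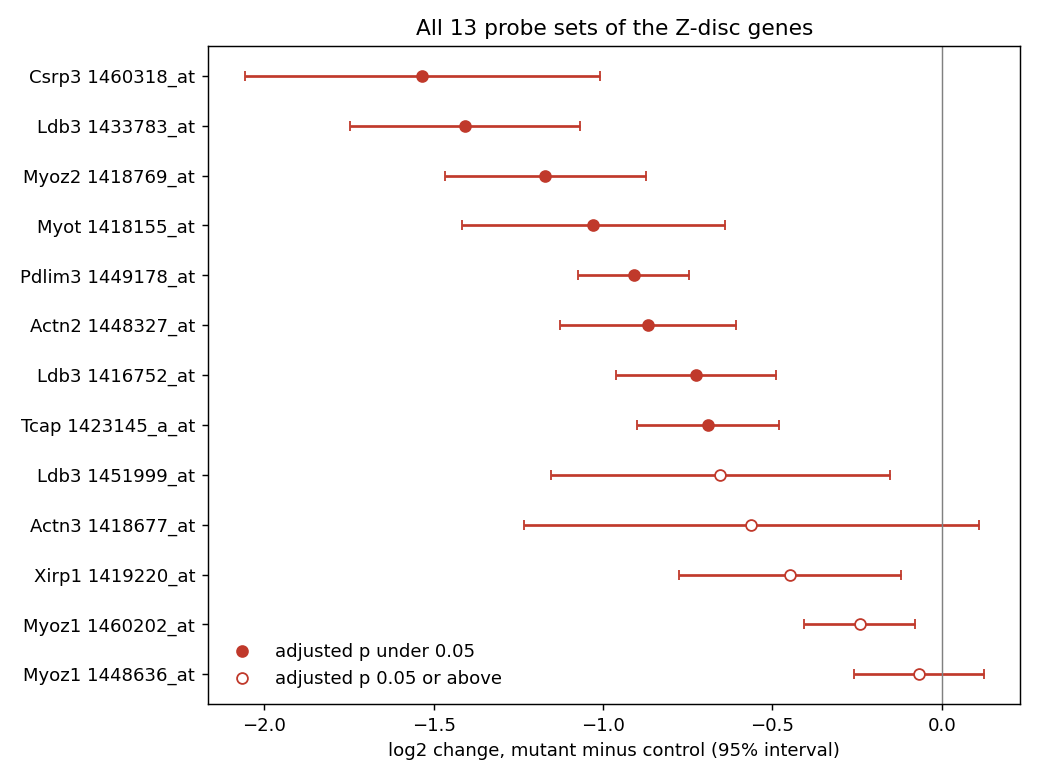
Log2 change, mutant minus control, with its 95% interval (horizontal axis) for all 13 probe sets (rows), filled where the limma adjusted p was under 0.05. The 8 filled sets run from -1.53 for Csrp3 to -0.69 for Tcap, and the intervals of Actn3 and of Myoz1 set 1448636_at cross 0.

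The start regions of the genes that fell are shown for the members whose windows hold a muscle-type motif. RefSeq promoter windows (GRCm38.p6) matched 5 of the 10 genes by symbol, Ldb3, Myoz2, Pdlim3, Csrp3 and Actn2, and the 250 bases before each start were searched on both strands for the E-box CANNTG, its form CAGCTG (which overlaps the first), the MCAT element CATTCC, the TATA box TATAAA, the MEF2 site and the CArG box of serum response factor. Each sequence runs 5′ to 3′ on the gene's strand, and capitals mark matches to any of these motifs other than the general E-box.
Ldb3, chr14:34588682-34588931, minus strand: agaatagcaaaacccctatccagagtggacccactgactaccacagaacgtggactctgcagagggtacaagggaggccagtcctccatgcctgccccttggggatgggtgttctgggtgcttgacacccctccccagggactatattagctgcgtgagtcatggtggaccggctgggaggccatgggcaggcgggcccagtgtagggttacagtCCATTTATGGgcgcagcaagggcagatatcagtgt
Myoz2, chr3:123034988-123035237, minus strand: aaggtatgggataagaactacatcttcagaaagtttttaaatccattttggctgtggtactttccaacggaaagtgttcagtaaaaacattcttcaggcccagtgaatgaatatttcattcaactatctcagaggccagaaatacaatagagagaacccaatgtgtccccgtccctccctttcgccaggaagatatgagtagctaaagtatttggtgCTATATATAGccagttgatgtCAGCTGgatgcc
Pdlim3, chr8:45885237-45885486, plus strand: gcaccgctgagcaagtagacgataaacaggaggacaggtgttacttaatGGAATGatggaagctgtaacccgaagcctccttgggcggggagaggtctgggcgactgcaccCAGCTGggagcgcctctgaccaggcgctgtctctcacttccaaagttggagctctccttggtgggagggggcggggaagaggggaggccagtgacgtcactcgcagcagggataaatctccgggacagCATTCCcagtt
Of 2 overlapping Ldb3 windows, the one shown holds a CArG box starting 35 bases before its start, and the same box lies 109 bases before the other start. It is a motif held by 1.47% of the 32851 windows of this length. The Myoz2 window holds a MEF2 site starting at 33 bases before the start, found in 2.92% of windows, and CAGCTG at 12 bases before it, found in 4271 of the 32851. In the Pdlim3 window CAGCTG lies 139 bases before the start, and CATTCC occurs 2 times, at 201 bases (on the other strand) and at 11 bases, a motif of 12.6% of windows. Csrp3 and Actn2 windows held only the general E-box CANNTG, with 4 matches in each of the 2 Csrp3 windows and 3 in that of Actn2, and 66.2% of all windows hold at least 1. No motif was common to all 5 genes, TATAAA was in none of the 7 windows of these genes and in 12.4% of all windows, and a match describes letters only.

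The other genes of the Z-disc showed the same direction in part. Of 40 measured further Z-disc genes, 20 fell, 0 rose and 20 did not pass. By the same rule 4.46% of all genes were called lower and 3.06% higher. With 1 array left out 16 to 21 fell, with 16 without mutant 3 and 21 without control 1. The median log2 change of the 40 was -0.35, and limma at an unadjusted p under 0.05 gave 27 lower and 2 higher, Pdlim2 and Synpo2. The 40 are not all particular to muscle. They include the non-muscle alpha-actinin genes Actn1 and Actn4, which are among those that did not pass. Synpo2l, which encodes an actin-binding protein of the Z-disc, changed by -0.78 (SE 0.078, limma adjusted p = 0.00103), and Lmcd1, a LIM protein that interacts with calcineurin signalling, by -1.24 (SE 0.125). The 4 sets of Synpo2l ran from -0.87 to -0.09 and their mean changed by -0.59. Cryab, the small heat shock protein that chaperones desmin and titin, averaged 10.57 ± 0.24 in mutants and 11.57 ± 0.13 in controls (SD, n = 4 each) and changed by -0.99 on its brightest set. Its 3 sets ran from -1.03 to -0.01 and their mean changed by -0.68. Trim63, encoding the ubiquitin ligase MuRF1, changed by -0.66 and the actin-binding nexilin gene Nexn by -0.73. Pdlim5, a PDZ-LIM relative of Ldb3, changed by -1.11 on its brightest set, but its 7 sets ran from -1.11 to 0.10 and their mean changed by -0.31 (limma adjusted p = 0.0126).

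**Figure D3:**
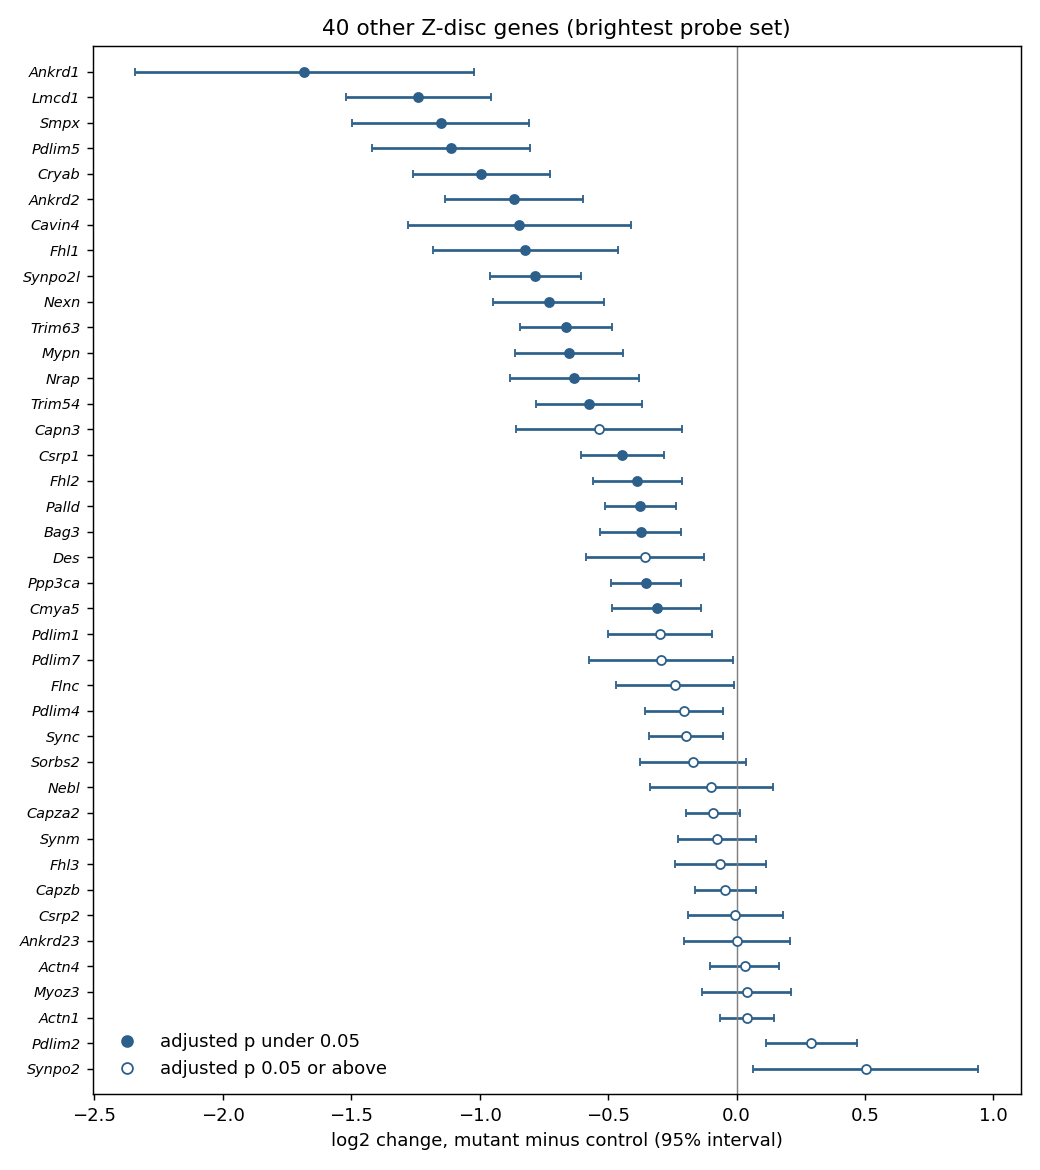
Log2 change, mutant minus control, with its 95% interval (horizontal axis) for 40 other Z-disc genes (rows), filled where the limma adjusted p was under 0.05. The 20 filled genes all lie below 0, down to -1.68, and Pdlim2 and Synpo2 lie farthest above 0 without passing.

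Relatives of the members from the same gene families are given side by side, 9 pairs chosen after their values were seen and therefore not tested against each other. Beside Actn2 at -0.87, the non-muscle alpha-actinin genes Actn1 and Actn4 changed by 0.04 (95% interval -0.07 to 0.15) and 0.03 (-0.10 to 0.17). Beside Csrp3 at -1.53, Csrp1 changed by -0.44 (limma adjusted p = 0.00798) and Csrp2 by -0.01 (95% interval -0.19 to 0.18). Myoz3, the third calsarcin gene, changed by 0.04 (-0.13 to 0.21) beside Myoz2 at -1.17. That Myoz3 set averaged 6.49 in mutants and 6.45 in controls, not far above the array medians, and its other set changed by -0.10. Among the PDZ-LIM genes, Pdlim1 and Pdlim2 changed by -0.30 and 0.29 beside Pdlim3 at -0.91, and neither passed. Beside Ldb3 at -1.41, Pdlim7 changed by -0.29 without passing, and Pdlim5, which passed, by -1.11 on its brightest set.

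Thick and thin filament genes, the rest of the sarcomere, fell in 24 of 31 cases and rose in 0. By the same rule 4.46% of all genes were called lower and 3.06% higher. At an unadjusted p under 0.05, limma gave 27 filament genes lower and 0 higher, and their median log2 change was -0.76. Lmod2, which encodes the actin-filament nucleator leiomodin, changed by -1.43, on a set below the array medians in both groups, and the fast-fibre troponin genes Tnnt3, Tnnc2 and Tnni2 by -1.23, -0.98 and -1.04. The 3 sets of Tnni2 ran from -1.04 to -0.28 and their mean changed by -0.76. Tnnt2, the troponin T of heart and embryonic muscle, changed by -0.86 on its brightest set and by -0.53 over the mean of its 3 sets (limma adjusted p = 0.00487), and the fast regulatory light chain gene Mylpf by -0.78. The mean over the 31 genes was 9.88 ± 0.15 in mutants and 10.60 ± 0.14 in controls (SD, n = 4 each), a difference of -0.73.

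That mean was taken off each Z-disc gene on the same array to ask whether it changed by more or less than the mean of these filament genes. The 31 genes changed by -1.43 to 0.03 and include 7 that did not pass, so the relative values depend on this choice of genes. A narrower set of filament genes was not tried. Csrp3 fell by a further 0.81 on the log2 scale, Ldb3 by 0.68, Myoz2 by 0.44, Pdlim3 by 0.18 and Actn2 by 0.14, and in each of these 5 genes all 4 mutants lay below all 4 controls (exact two-sided permutation p = 0.0286, the smallest that 4 arrays against 4 allow, for 10 genes tested and with no adjustment over them). Myoz1 was higher relative to the filaments by 0.48, with no overlap (exact p = 0.0286). Each value depends on its own array only, so leaving out 1 array cannot make the groups of these 6 genes overlap. Those fits show only how far the size of the difference moves. Fully separated groups of 3 and 4 arrays give an exact p of 0.0286 or 0.0571, so the p of 0.0571 for Pdlim3, Csrp3 and Actn2 in some of those fits says nothing about their stability, and Csrp3 differed by -0.95 to -0.68 over the 8 fits. Myot differed by -0.30 (exact p = 0.0857) and Tcap by 0.04 (exact p = 0.714; 0.12 and 0.0286 without control 3), each with overlapping groups. Xirp1 (0.28, exact p = 0.0857; 0.37 and 0.0286 without control 4) and Actn3 (0.16, exact p = 0.629; -0.11 without mutant 1) overlapped. Over the mean of all probe sets the relative change of Ldb3 was -0.26 in place of -0.68. The median log2 change of the 11 myogenic regulators was -0.28, and relative to their mean Csrp3 differed by -1.23, Ldb3 by -1.10, Myoz2 by -0.86, Pdlim3 by -0.60, Actn2 by -0.56, Myot by -0.72 and Tcap by -0.38, each with the exact p at 0.0286, and Myoz1 by 0.06 (exact p = 0.4). Myoz1 and Xirp1 lay nearest to the array medians or below them, and the part of probe brightness in these relative values was not tested.

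**Figure D4:**
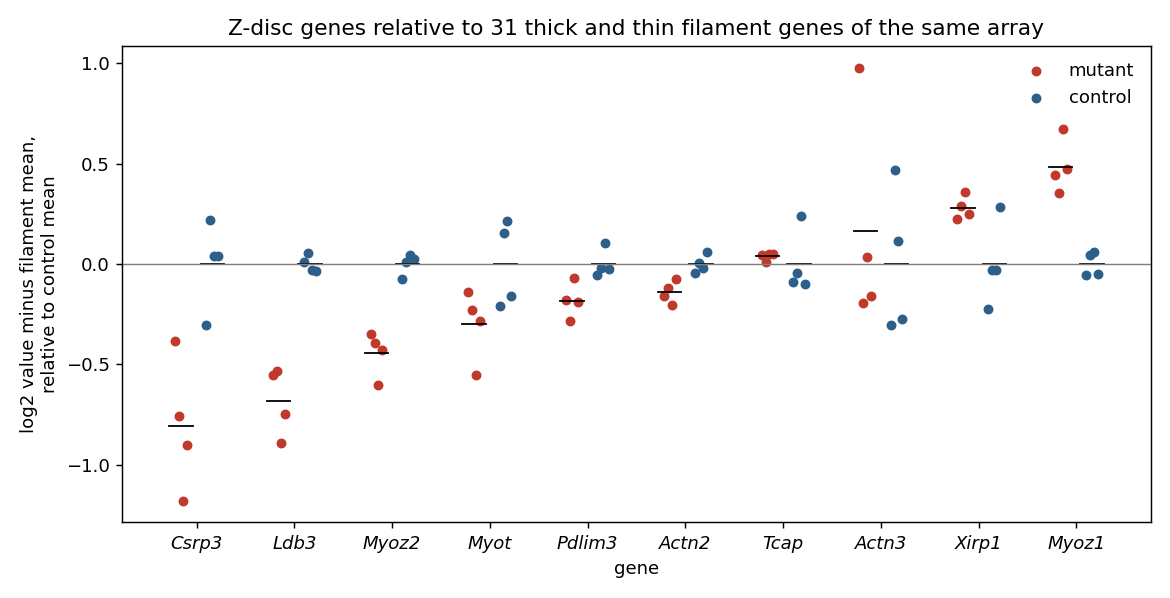
Log2 value of each Z-disc gene minus the mean of 31 filament genes on the same array, set to 0 at the control mean (vertical axis), for 4 mutant arrays (red, left) and 4 control arrays (blue, right), with black lines for the means. Mutants lie below controls for Csrp3, Ldb3, Myoz2, Pdlim3 and Actn2 without overlap, and above them for Myoz1.

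Myogenic regulators, the transcription factors that set muscle identity and differentiation, fell in 4 of 11 cases and 0 rose. By the same rule 4.46% of all genes were called lower and 3.06% higher. At an unadjusted p under 0.05, limma gave 6 regulators lower and 0 higher. Mef2c changed by -0.57 (limma adjusted p = 0.00671), and by -0.48 over the mean of its sets, which did not pass (adjusted p = 0.0891). Myog, the gene of myogenin, which acts late in myoblast differentiation, changed by -0.38, and Myf6, encoding MRF4, by -1.27. The call of Myf6 was lost without mutant 2 (-1.28), mutant 3 (-1.19) or mutant 4 (-1.24). Myod1 changed by -0.31 and lost its call in each fit without 1 array other than that without mutant 4 (-0.36 to -0.26 over the 8 fits), and over the mean of its sets (-0.19), and Mef2a (-0.28) did not pass. Mef2d (-0.24, limma adjusted p = 0.0553) did not pass either but did so in 6 of 19 alternatives, among them that without mutant 1 (-0.28, adjusted p = 0.0494).

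Around their group means, with both groups pooled, the Z-disc genes that fell varied together. After the group mean was taken off, each of the 7 correlated with the mean of the other 6 at a Pearson r of 0.84 (Tcap) to 0.98 (Myoz2) over the 8 arrays, while Myoz1, Xirp1 and Actn3 correlated with the mean of the 7 at 0.68, 0.68 and 0.64. These are descriptions over arrays that share labelling and normalization. No r was taken in each group apart, and the r of all genes is not given as a background. Mutant 3 was the lowest mutant for all 7 and also had the lowest mean over the filament genes (9.66, against 9.89 to 10.02 on the other mutants), the myogenic regulators (9.14), the smooth muscle and pericyte markers (7.55), the macrophage and leukocyte markers (7.13), the Schwann and glial markers (7.67) and the endothelial markers (8.14). It had the highest mutant mean over the cardiac (5.87) and erythroid (8.89) markers. Over the neuronal, epithelial, cartilage and neural crest mesenchyme markers it was neither the lowest nor the highest mutant. Without mutant 3 the same count of 7 genes fell, with a log2 change of -1.34 for Csrp3 and -0.87 for Myot. The genes outside the 10 whose deviations followed the mean of the 7 most closely were Tuba4a, a tubulin gene (r = 0.99, log2 change -0.64), the skeletal actin gene Acta1 (0.99, -1.03), Tagln, an actin-binding protein gene of smooth and embryonic muscle (0.98, -0.88), Nol3 (0.98, -0.41), the potassium channel gene Kcnh2 (0.98, -0.03, not passing) and Rab40b (0.98, -1.20). Tagln lost its call without control 2 (-0.81), and Nol3 without mutant 4 (-0.41), control 2 (-0.37) or control 4 (-0.39).

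**Figure D5:**
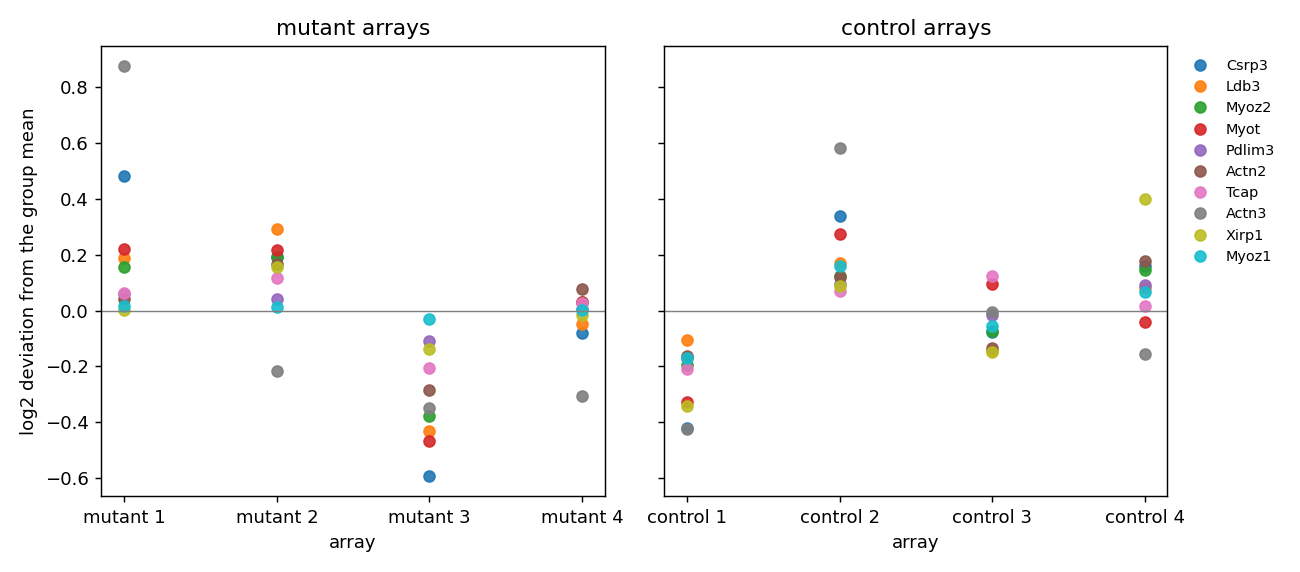
Log2 deviation of each Z-disc gene from its group mean (vertical axis) on the 4 mutant arrays (left panel) and the 4 control arrays (right panel), 1 colour per gene. Points of mutant 3 and control 1 lie below 0 for all 10 genes, and the point of Actn3 on mutant 1 stands above the others.

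Some markers of other cells also differed between the groups, and their part in the Z-disc result was not tested. Over all 18193 genes, 4.46% were called lower and 3.06% higher. The 2 brightest genes of each list are named whether or not they passed. Neuronal markers were called lower in 5 of 7 cases (list mean 6.18 to 6.44 on mutant arrays, 7.01 to 7.25 on control arrays), brightest for Dcx and Elavl4. Schwann and glial markers, brightest for Erbb3 and Fabp7, which did not pass, were called lower in 3 of 5 (7.67 to 7.999 in mutants, 8.04 to 8.37 in controls), macrophage and leukocyte markers, brightest for Csf1r and C1qb, in 4 of 10 (7.13 to 7.68 in mutants, 7.66 to 7.79 in controls) and smooth muscle and pericyte markers, brightest for Acta2 and Kcnj8, in 4 of 9 (7.55 to 8.08 in mutants, 7.92 to 8.30 in controls). Endothelial markers, brightest for Cdh5 and Emcn, were called higher in 2 of 8 (8.14 to 8.47 in mutants, 7.94 to 8.04 in controls), Cdh5 among them and Emcn not. At an unadjusted p under 0.05, a level at which the share of all genes was not counted, limma gave 6 of these 8 higher and 0 lower. Of the neural crest mesenchyme markers, brightest for Pdgfra and Prrx1, 1 of 8 was called higher (8.49 to 8.71 in mutants, 8.36 to 8.65 in controls), and of the cartilage markers, brightest for Col9a1 and Col2a1, 1 of 6 (6.76 to 6.90 in mutants, 6.67 to 6.78 in controls). Epithelial markers, brightest for Cdh1 and Trp63, were called lower in 1 of 8 (9.67 to 10.14 in mutants, 10.01 to 10.23 in controls), erythroid markers, brightest for Hba-x and Hbb-bh1, in 0 of 5 (0 at an unadjusted p under 0.05 in limma; 8.45 to 8.89 in mutants, 8.64 to 8.93 in controls) and cardiac markers, brightest for Nkx2-5 and Myh6, in 1 of 7, Nkx2-5 at -0.34.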

How the data were processed

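Total RNA of tongue buds was extracted with a column kit and hybridised as biotin-labelled cRNA to Affymetrix arrays, as the labels' protocols state. The deposited log2 values are the authors' output of RMA, named in the submitters' processing notes, a method that corrects background, equalises the arrays' distributions and combines each set's probes into 1 value, which can hide a shift shared by most genes. Its version is not given in the sources used here. No genome build is named for the arrays, and no scan date was used here.

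Of 45101 probe sets, 34945 named 1 gene through the platform annotation and were fitted, 932 named several, 9160 were unnamed and 64 were controls. Of the fitted sets 34741 matched a RefSeq gene identifier (GRCm38.p6). The groups were compared in R 4.3.3 by limma 3.58.1 (functions lmFit and eBayes, two-sided, 3.06 prior degrees of freedom, no filter), with Benjamini-Hochberg adjustment over all 34945 sets. A gene is represented by its set with the highest mean over the 8 arrays. Log2 changes are mutant minus control, and SE and intervals are moderated. On simulated data for 34945 probe sets the fit recovered 70 of 100 changes of 0.5 and 95 of 100 changes of 1, with 9 false calls. The simulated noise was independent between probe sets, unlike the deviations that genes share on the real arrays, so recovery on those was not measured.

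The members and gene lists were chosen with earlier results of these data known. Genes named were the members, the 6 smallest p of each muscle list, the 2 brightest of each marker list and the 6 closest in deviation, with exceptions stated. Of 43 further Z-disc genes 40 were measured, of 12 regulators 11, of 8 neuronal markers 7, of 7 Schwann markers 5 and of 7 erythroid markers 5. Murc was read as Cavin4 through RefSeq synonyms. Alternatives changed the block, probe set choice, filter, normalization, variance model and arrays.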

Additional observations from a re-analysis of the deposited data

Results flagged for a closer look

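In groups of 4 arrays, an array was singled out where its gap to the nearest other array exceeded Dixon's 95% critical share of the group's range, which chance does in about 1 of 20 groups. Of 94 groups examined 4 met this. Actn3 on mutant 1 read 8.52, against 7.30 to 7.43 on the other mutants, a gap of 0.891 of the range. Mylpf on mutant 3 read 12.59, against 12.89 to 12.94 on the other mutants (0.858), and Myog on mutant 3 read 12.22, against 12.38 to 12.40 (0.868). Tcap relative to the filament mean was higher on control 3, at -2.94, against -3.28 to -3.22 on the other controls (0.837).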

How the results depend on the processing

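Of the 10 Z-disc genes 6 to 9 were called lower over 19 alternatives, 7 to 9 with 1 array left out, and 9 without controls 1 and 3 together, and 7 to 10 of the 13 probe sets. Csrp3, Ldb3, Myoz2, Pdlim3, Actn2 and Tcap passed in each of the 19, Myot in 17 and Actn3 in 0. With the replicate number as a block, Myot was not called (limma adjusted p = 0.0528), 6 member genes and 7 member probe sets were, other Z-disc genes called lower numbered 12 in place of 20, and 697 of all probe sets (484 genes) were called in place of 2076 (1367). Mutants and controls of the same number did not deviate together (r of -0.58, -0.13, -0.34 and -0.38), so the numbers were not taken as pairs. Between different numbers r ran from -0.36 (mutant 3 with control 4) to 0.50 (mutant 3 with control 1). Whether arrays of different numbers share a litter or a batch was not tested. Myog, Myf6, Myod1, Tuba4a, Tagln, Nol3 and Rab40b also lost their calls under the block. Among all probe sets 1194 to 1705 passed with 1 array left out (821 to 1136 genes), with the largest drops without mutant 2, 3 or 4 or control 2. Without controls 1 and 3, 1201 passed (791 genes). How far the smaller number of arrays accounts for these drops was not tested. Other Z-disc genes called higher numbered 1 in 5 settings. It was Pdlim2 (0.29) with 1 probe set per gene, the mean of all sets, no dim sets or trend and robust moderation, and Synpo2 (0.84) without controls 1 and 3. With regulators in place of filaments, relative changes were 0.065 for Myoz1 (call lost) and -0.38 for Tcap and -0.72 for Myot (calls gained), and the cause was not tested. Uncalled Myoz1 set 1448636_at ran from -0.11 to 0.0022 and Kcnh2 from -0.10 to 0.060 with 1 array left out, crossing 0 without mutant 4 and mutant 3. Uncalled relative changes that turned sign were -0.26 for Actn3 and -0.14 for Xirp1 with regulators and -0.022 for Tcap with the mean of all sets. With 1 array left out, relative changes ran from -0.161 to -0.118 for Actn2, from -0.107 to 0.320 for Actn3, from 0.0036 to 0.117 for Tcap, from -0.946 to -0.682 for Csrp3, from -0.220 to -0.149 for Pdlim3 and from 0.205 to 0.374 for Xirp1, where Tcap and Xirp1 each passed in 1 fit and Actn3 turned sign in 1. For Actn2, Csrp3 and Pdlim3 the exact p was 0.0571 in some of these fits, which follows from the number of permutations. Their groups could not come to overlap when 1 array was left out. Without controls 1 and 3 the smallest possible exact p is 0.0667. Dim sets such as Xirp1 limit what small changes can show.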
